A study of Mus musculus with 4 samples.

Results

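Il17a, Il17f, Csf2, Il17re and Il2 are 5 of the 21027 genes counted in both deposited single-cell tables, and were chosen by name, with no measured value in the choice. Il17a and Il17f encode the paired cytokines IL-17A and IL-17F, Csf2 encodes granulocyte-macrophage colony-stimulating factor (GM-CSF), Il17re encodes a receptor chain for IL-17C, and Il2 encodes the T cell growth factor interleukin 2. The study sorted group 3 innate lymphoid cells (ILC3s) from the small-intestinal lamina propria, the connective tissue under the gut epithelium, and sequenced them on the BD Rhapsody system. All cells came from 1 group, mice of 6 to 8 weeks that carry flox sites in Cxxc1 (Cxxc1flox/flox) together with a Cre allele. Every cell therefore shares this genotype, and cells with intact Cxxc1 were not analysed here. The labels list 4 samples, which are 2 libraries for each of 2 replicates, so n = 2.

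IL-17A and IL-17F signal as homodimers or as a heterodimer through IL-17RA and IL-17RC on epithelial and stromal cells, where they induce antimicrobial peptides and chemokines that draw neutrophils. Both genes are known from helper T cells of the type 17 kind, from some γδ T cells and from ILC3s. GM-CSF acts on macrophages and dendritic cells, and gut ILC3s are a known source of it. IL-17RE pairs with IL-17RA to bind IL-17C, a cytokine made by epithelial cells, so this member is a receptor chain and not a ligand. Il2 is made mainly by activated T cells.

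Il17a (ENSMUSG00000025929.4) lies on chromosome 1 from 20730905 to 20734496 on the plus strand (GRCm38), and Il17f (ENSMUSG00000041872.9) lies on the minus strand of the same chromosome from 20777146 to 20790617. The intergenic stretch between them is 42649 bases. The 200 bases before the RefSeq start of each gene (GRCm38.p6) are shown because transcripts of these neighbours were repeatedly found in the same cells. For Il17f the RefSeq start (20784270) differs from the start of the span given above (20790617), so its window lies inside that span. Capitals mark the motif AGGTCA, a core bound by many nuclear receptors, found by a search of both strands.
Il17a, chr1:20730705-20730904, plus strand: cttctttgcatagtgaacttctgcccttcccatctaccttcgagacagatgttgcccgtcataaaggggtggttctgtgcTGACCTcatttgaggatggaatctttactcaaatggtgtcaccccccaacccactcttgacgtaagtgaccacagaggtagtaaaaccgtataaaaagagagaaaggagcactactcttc
Il17f, chr1:20784271-20784470, minus strand: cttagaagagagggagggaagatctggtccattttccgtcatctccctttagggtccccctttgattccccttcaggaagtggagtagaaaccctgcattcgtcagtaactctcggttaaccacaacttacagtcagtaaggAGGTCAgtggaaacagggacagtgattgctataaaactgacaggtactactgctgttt
The motif stood from 120 to 115 bases before the start of Il17a, on the opposite strand, and from 58 to 53 bases before the start of Il17f, on the same strand. Of 32851 RefSeq windows of this length, 11.4% held it, so a match is a description of the letters and not of binding. The TATA box TATAAA, present in 9.96% of windows, ended 26 bases before the start of Il17a and 24 bases before that of Il17f.

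Csf2 (ENSMUSG00000018916.5) is on chromosome 11 from 54247271 to 54249667, minus strand. Its span overlaps Gm12223 on the opposite strand over 2068 bases, and how the counting used strand is not given in the sources used here. Gm12223 held 0 and 2 UMIs in ILC3s. Il17re (ENSMUSG00000043088.16) is on chromosome 6 from 113458484 to 113470758, plus strand. Il2 (ENSMUSG00000027720.7) is on chromosome 3 from 37120523 to 37125959, minus strand, and overlaps Adad1 on the opposite strand over 1408 bases. Adad1 had 0 UMIs in ILC3s and CD4 T cells of both replicates.

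The data are counts of unique molecular identifiers (UMIs), where 1 UMI stands for 1 captured transcript. Replicate 1 kept 1906 of 2077 tagged cells and replicate 2 kept 4179 of 4532, from separate captures, so replicate and capture cannot be told apart. Total depth was 11939862 and 12141164 UMIs (median per tagged cell 4027 and 2269), and 7 cell indices occurred in both captures. Cells were classed by marker UMIs, with no member gene in any gate. Cells that met the ILC3 gate (markers such as Kit and Il23r, no CD3 or Trac UMI) were 406 and 1003 cells, or 21.3% and 24.0%, although the sort was for ILC3s. T cells made up 279 and 1820 cells, plasma cells 390 and 20, stromal cells 319 and 189, and 410 and 1067 cells (21.5% and 25.5%) met no gate. Il22, which no gate used, had a UMI in 73.9% and 74.7% of ILC3s, and Cd3e was at 0 there by the gate. Free RNA was present in both captures: the plasma cell gene Igha had a UMI in 97.3% and 25.4% of ILC3s, and Il22 in 51.5% and 60% of plasma cells. The targeted gene Cxxc1 stood at 40.2 and 45.7 CPM (UMIs per 1000000 UMIs of the class) in ILC3s against 98.3 and 79.2 CPM in CD4 T cells. Plasma cells had 72.9 and 46.6 CPM, and stromal cells 67.1 and 50.2 CPM. In replicate 1 both lay above the ILC3 range allowed by counting error (31.0 to 51.3 CPM). In replicate 2 both lay inside that range (38.5 to 53.8 CPM), so there the ILC3 level was not particular to ILC3s. The floxed exons are not given in the labels, and a 3′ tag outside them checks nothing.

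A UMI of at least 1 member was found in 405 and 853 cells, or 21.2% and 20.4% of those kept. Ccr6-gated ILC3s, the subset that resembles lymphoid tissue inducer cells, led with 68.9% and 54.7% of cells positive for any member. All ILC3s had 39.4% and 34.5%, type 2 T cells (T cells with an Il13 or Il5 UMI) 33.3% and 38.9%, and CD4 T cells 13.4% and 11.4%. Plasma cells, which should lack these genes, had 15.9% and 10% at median depths of 9247.5 and 8692.5 UMIs, against 3649 and 2917 in ILC3s and 2787 and 2098 in CD4 T cells. Values below are counts of UMIs and CPM per replicate, with exact 95% intervals that cover counting error only. CPM are not compared between genes.

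**Figure D1:**
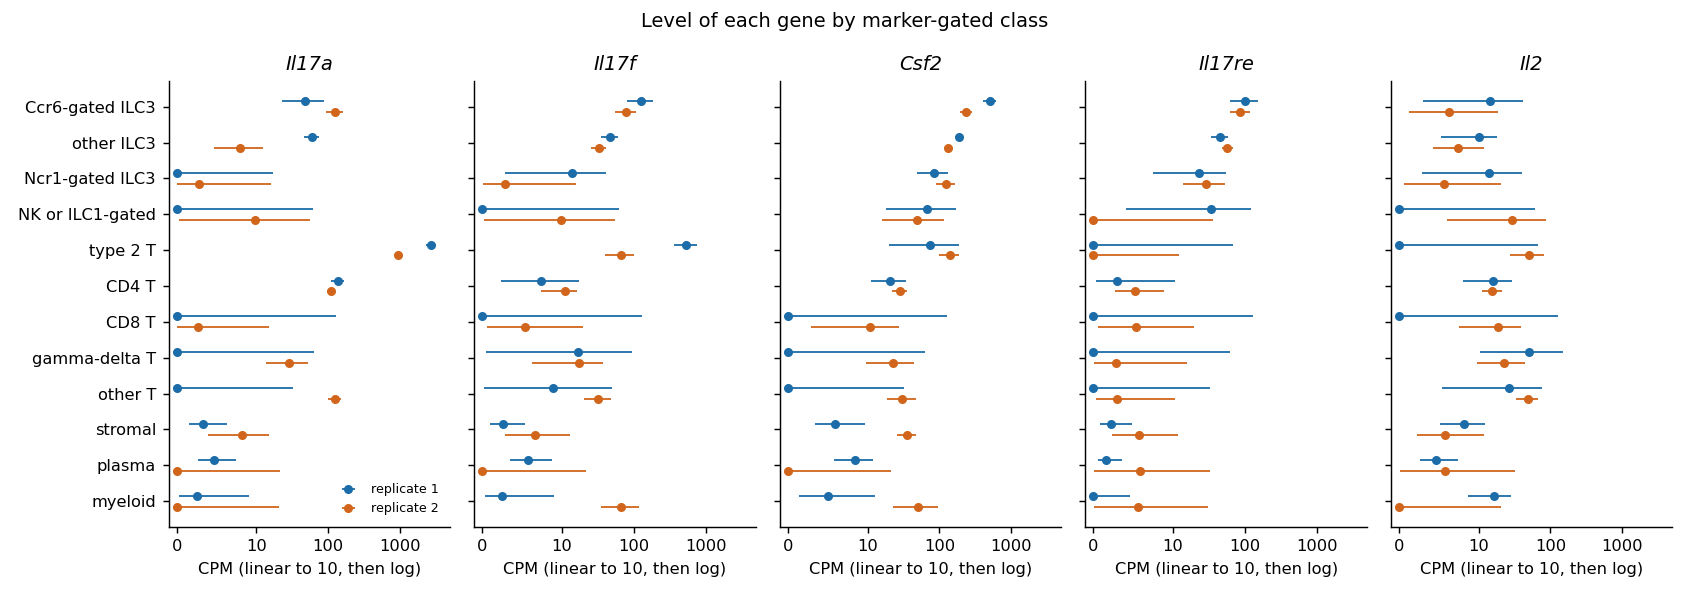
Level of each of the 5 genes by marker-gated class in CPM (axis linear to 10 and logarithmic above), 1 point per replicate with its exact 95% Poisson interval. Il17a reached 2724 and 925 CPM in type 2 T cells, while Csf2 and Il17re were higher in Ccr6-gated ILC3s than in CD4 T cells in both replicates.

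Il17a UMIs came mainly from T cells, and at the highest level from T cells that also held type 2 cytokine transcripts. Type 2 T cells of replicate 1 had 2724 CPM (2302 to 3199; 148 UMIs), and those of replicate 2 had 925 CPM (820 to 1040; 280 UMIs). These 15 and 95 cells carried 40% and 35.1% of all Il17a UMIs. A UMI was found in 3 of 15 cells (20.0%, 4.33 to 48.1) and in 27 of 95 cells (28.4%, 19.6 to 38.6). The replicate 1 level rests on few cells, since 130 of its 148 UMIs were in a cell of 5211 UMIs. In replicate 2 the top cell held 63 of 280 UMIs, and 12 of the 27 positive cells had 5 or more.

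CD4 T cells without Il13 or Il5 had 136 CPM of Il17a (110 to 167; 93 UMIs) and 109 CPM (96.6 to 123; 274 UMIs). Their share of positive cells was small, at 9 of 201 (4.48%) and 39 of 1089 (3.58%). In replicate 1 the plasma cell share was nearly as large, 16 of 390 (4.10%), but 15 of those 16 cells had a UMI count of 1. After each cell was thinned to 1500 UMIs, the Il17a shares were 4.06% and 2.94% in CD4 T cells, against 1.54% in replicate 1 plasma cells and 1.12% in replicate 2 stromal cells. Among positive CD4 T cells, 3 of 9 and 16 of 39 had at least 5 UMIs, so few cells carried most of the transcript. The highest held 49 of 93 UMIs (52.7%) and 47 of 274 (17.2%), in cells of 10256 and 9703 UMIs, well above the class medians.

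In ILC3s Il17a stood at 49.6 CPM (79 UMIs, 23 of 406 cells) and 24.8 CPM (77 UMIs, 29 of 1003 cells). Thinned to 1500 UMIs per cell, 3.48% and 1.85% of ILC3s held it, against the 1.54% and 1.12% given for plasma and stromal cells. The Ccr6-gated subset had 48.1 CPM (10 UMIs) and 123 CPM (58 UMIs), and its top cell held 3 and 24 of these UMIs. Ncr1-gated ILC3s, the subset with the natural cytotoxicity receptor NKp46, had 0 UMIs in 55 cells and 1 UMI in 113 cells. ILC3s with neither gate gene differed between replicates, at 59.1 and 7.89 CPM, which do not overlap within counting error. γδ T cells had 0 UMIs in 14 cells and 28.3 CPM in 148 cells, and the remaining T cells 0 UMIs in 40 cells and 123 CPM in 338 cells.

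Il17f, the gene beside Il17a, was ordered differently. Ccr6-gated ILC3s had 125 CPM (81.7 to 183; 26 UMIs, 9 of 45 cells) and 78.3 CPM (55.2 to 108; 37 UMIs, 16 of 128 cells). The top Ccr6-gated cell held 13 of these 26 UMIs in replicate 1 and 9 of 37 in replicate 2. ILC3s with neither gate gene had 46.3 and 32.4 CPM, and Ncr1-gated ILC3s 13.8 and 2.83 CPM, from 3 and 1 UMIs. The order of these subsets was the same in both replicates. Type 2 T cells had 534 CPM in replicate 1, where all 29 UMIs were in the same cell that held 130 Il17a UMIs, and 66.1 CPM in replicate 2 (20 UMIs, 9 of 95 cells). CD4 T cells had 7.33 CPM (5 UMIs) and 11.1 CPM (28 UMIs). Their positive shares, 1.99% and 1.56%, were at or below those of plasma cells in replicate 1 (2.05%) and stromal cells in replicate 2 (1.59%). As shares they are not told apart from background. A CD4 T cell of replicate 2 held 12 of the 28 UMIs. Co-detection with Il17a in T cells outside the type 2 gate is given below. ILC3s contributed 44.4% and 43.9% of all Il17f UMIs.

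Csf2 was chiefly an ILC3 transcript in these cells, with 64.1% and 50.3% of its UMIs in that class. Ccr6-gated ILC3s had 500 CPM (409 to 606; 104 UMIs) and 233 CPM (191 to 281; 110 UMIs), and 17 of 45 and 38 of 128 cells were positive. The top Ccr6-gated cell held 35 of these 104 UMIs in replicate 1 and 10 of 110 in replicate 2. ILC3s with neither gate gene had 188 and 131 CPM, and Ncr1-gated ILC3s 83.0 and 125 CPM. In replicate 2 the intervals of these last subsets overlapped. Over all ILC3s the share of cells with Csf2 was 22.7% (18.7 to 27.0) and 17.8% (15.5 to 20.4), and 24 of 92 and 27 of 179 positive cells had 5 or more UMIs. Type 2 T cells had 73.6 CPM (4 UMIs) and 139 CPM (42 UMIs, 10 of 95 cells). CD4 T cells had 20.5 and 28.3 CPM. Their positive shares of 2.99% and 3.95% lay below those of plasma cells in replicate 1 (6.15%) and stromal cells in replicate 2 (12.2%, median depth 5915 UMIs). Thinned, the CD4 T cell shares of Csf2 were 2.54% and 2.73%, above the 0.771% of plasma cells in replicate 1 and below the 7.30% of stromal cells in replicate 2. The CPM had the same order as the thinned shares, at 8.47 in replicate 1 plasma cells and 35.4 in replicate 2 stromal cells, so no order between CD4 T cells and this background is read for Csf2. The type 2 ILC gate, with only 4 and 3 cells, had 259 and 657 CPM.

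ILC3s held 66.7% and 72.7% of all Il17re UMIs, the largest share of any of the 5 genes in either replicate. All ILC3s had 49.0 CPM (38.7 to 61.2; 78 UMIs) and 58.2 CPM (50.1 to 67.4; 181 UMIs), with 14.5% and 15.5% of cells positive. The subsets kept the same order in both replicates. Ccr6-gated cells had 101 and 86.8 CPM, cells with neither gate gene 44.6 and 56.9 CPM, and Ncr1-gated cells 23.1 and 28.3 CPM. No cell held more than 4 UMIs. CD4 T cells had 2.93 CPM (2 UMIs) and 5.18 CPM (13 UMIs), with shares of 1.00% and 0.826% that were below the stromal shares of 1.88% and 3.17% and are read as background. Type 2 T cells had 0 UMIs in both replicates, where the exact 95% upper limits are 21.8% and 3.81% of cells with a UMI.

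Il2 was low everywhere. ILC3s had 11.3 CPM (18 UMIs) and 7.08 CPM (22 UMIs), and their positive shares of 4.43% and 1.99% were below the stromal shares of 6.58% and 3.70%. CD4 T cells had 16.1 CPM (11 UMIs) and 15.5 CPM (39 UMIs), with 4.98% and 2.85% of cells positive. These shares too were below the stromal ones, but stromal cells were deeper, with medians of 8418 and 5915 UMIs. After thinning the CD4 T cell shares were above, at 3.55% and 2.41% against 2.22% and 0.562%. The CPM were also above the stromal 8.15 and 5.76, but their counting intervals overlapped in both replicates, so no order is read. The replicate 1 plasma share, 4.36%, was slightly below those of ILC3s and CD4 T cells. The highest values with more than 30 cells in each replicate were in T cells outside the CD4, CD8, γδ and type 2 gates, at 26.5 CPM (3 UMIs) and 48.1 CPM (33 UMIs).

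**Figure D2:**
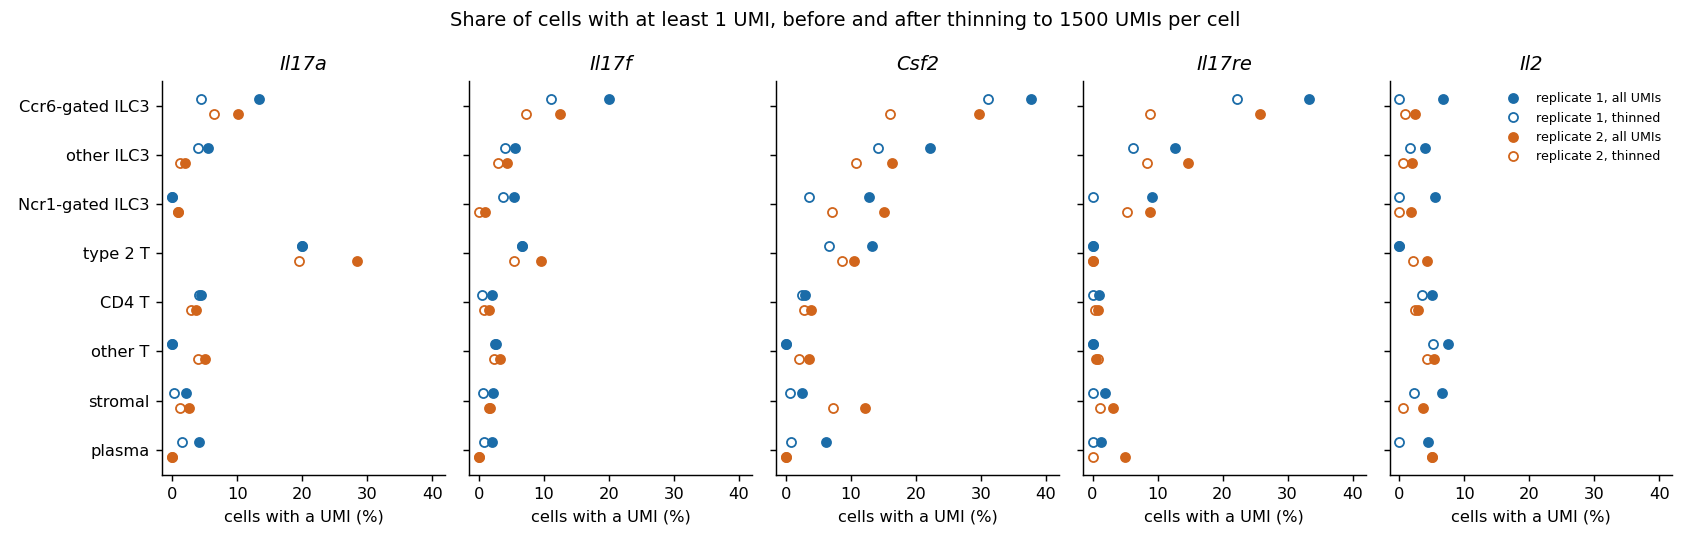
Percent of cells with at least 1 UMI of each gene by class and replicate, for all UMIs (filled) and after thinning each cell to 1500 UMIs (open). Thinning lowered the Csf2 share of Ccr6-gated ILC3s from 37.8% and 29.7% to 31.1% and 16.0%, and that of Il17a in replicate 2 type 2 T cells from 28.4% to 19.6%, while replicate 1 stayed at 20.0%.

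**Figure D3:**
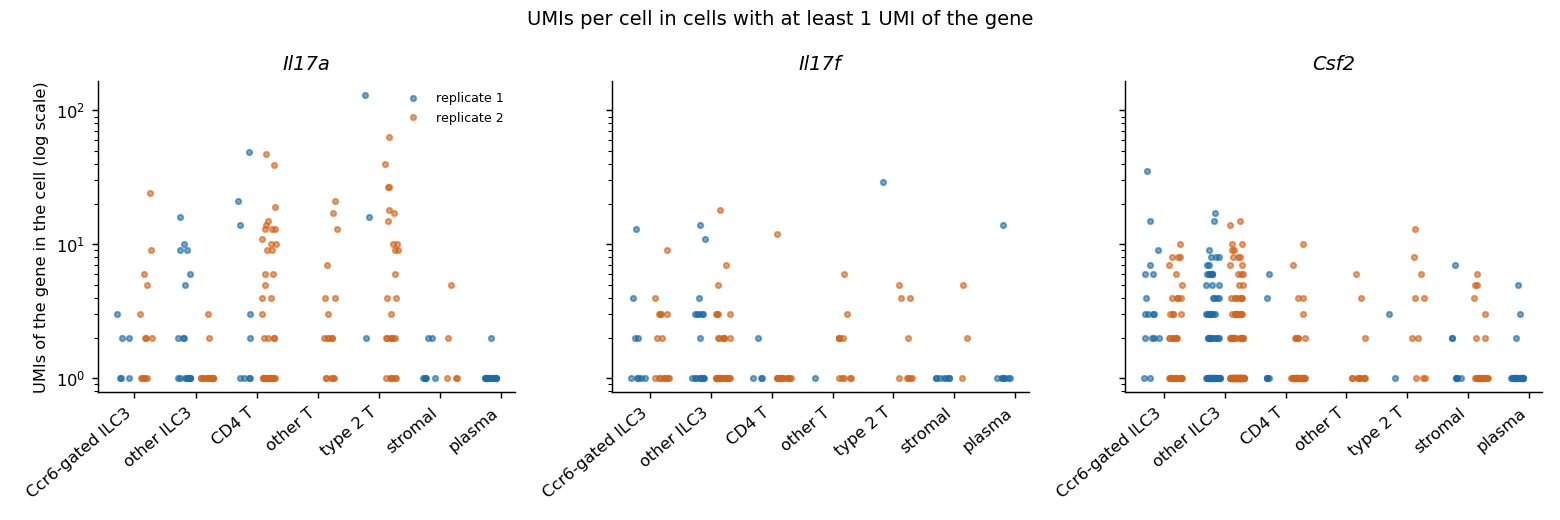
UMIs of Il17a, Il17f and Csf2 in each cell with at least 1 UMI (logarithmic axis), by class and replicate. A type 2 T cell of replicate 1 with 130 Il17a UMIs stands above all others, and 15 of 16 Il17a-positive plasma cells of replicate 1 sit at 1.

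Selected classes are given here in order of mean CPM over both replicates, and some pairs did not differ beyond their spread. Classes not named stand above or between some of them. Il17a fell from 1824 ± 1272 (SD, n = 2) in type 2 T cells to 123 ± 19.3 in CD4 T cells, 85.4 ± 52.8 in Ccr6-gated ILC3s and 1.42 ± 2.00 in Ncr1-gated ILC3s. The values of CD4 T cells and Ccr6-gated ILC3s overlapped. Il17re went from 93.9 ± 10.03 in Ccr6-gated ILC3s to 25.7 ± 3.71 in Ncr1-gated ILC3s and 4.05 ± 1.59 in CD4 T cells, and these did not overlap. Csf2 went from 366 ± 189 in Ccr6-gated ILC3s to 106 ± 46.1 in type 2 T cells and 104 ± 29.4 in Ncr1-gated ILC3s, of which the last pair overlapped. The type 2 ILC gate, with few cells, stood above these at 458 ± 281. ILC3s with neither gate gene, at 160 ± 39.8, stood between Ccr6-gated ILC3s and type 2 T cells.

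The first comparison asked how CD4 T cells differ from ILC3s of the same captures, and it separated the members. Il17a was higher in CD4 T cells, whereas Il17f, Csf2 and Il17re were lower, and Il2 did not pass the test, so 4 of the 5 were called. Sums of UMIs per class and replicate were tested with edgeR's quasi-likelihood test, with Benjamini-Hochberg adjustment over 9042 genes, of which 20.1% were called (8.58% higher and 11.5% lower in CD4 T cells). Whether the replicates are separate animals is not given in the labels. The p-values rest on how far class differences varied between the 2 replicates, pooled over the 9 classes of the fit and across genes. That spread may be technical. Il17a was 123 ± 19.3 CPM in CD4 T cells and 37.2 ± 17.6 CPM in ILC3s, a log2 fold change of 1.85 with an SE of 0.44 (adjusted p = 0.00177). The groups did not overlap, but with each cell's member UMIs capped at 5 the value was 0.80 (adjusted p = 0.201) and DESeq2 gave 1.67 (adjusted p = 0.440), so the call rests on cells with many UMIs and on the tool. Over all settings tried its adjusted p ran from 1.0e-19 to 0.440.

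Il17f was 9.24 ± 2.70 CPM in CD4 T cells and 44.1 ± 11.4 CPM in ILC3s, and fell by 1.97 on the log2 scale (SE 0.60, adjusted p = 0.0148). DESeq2 gave an adjusted p of 0.276 and the fit without the replicate block 0.0706. The range over settings was 7.7e-09 to 0.276. Without replicate 1 the value was -1.37 with no test. Values with a replicate left out, here and below, are differences of log2 CPM in the other replicate with a small count added. They are not refits, so they are another measure than the fitted values. Csf2 was 24.4 ± 5.47 against 180 ± 48.2 CPM, a log2 fold change of -2.92 with an SE of 0.45 (adjusted p = 2.8e-06). Il17re was 4.05 ± 1.59 against 53.6 ± 6.53 CPM, a log2 fold change of -3.52 with an SE of 0.53 (adjusted p = 2.6e-06). For Csf2 and Il17re every replicate of ILC3s was above every replicate of CD4 T cells, and no setting with a test lost either call. Without replicate 1 the values, then with no test, were -2.12 for Csf2 and -2.88 for Il17re. Il2 was 15.8 ± 0.427 against 9.19 ± 2.99 CPM, with a log2 fold change of 0.94 with an SE of 0.52 (adjusted p = 0.232).

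Of the IL-17 ligand and receptor list, 6 of 12 genes were tested, and 3 were higher and 2 lower in CD4 T cells. The list's median log2 fold change was 0.71 against 0.02 over all genes. Il17a, Il17f and Il17re are among these 6 genes in every comparison, so the list's counts and medians partly restate the members. The other genes called were Il17rb, a receptor chain for IL-25, at 61.6 and 33.4 CPM against 6.91 and 6.11 CPM (log2 fold change 2.88), and Il17ra, the shared receptor chain, at 83.6 and 50.6 against 29.5 and 29.3 CPM (1.19). Of the regulators and receptors of the type 17 programme, 17 outside the T cell and ILC3 gates were tested. Of these, 7 were higher and 4 lower. Ccr6, among them, sets the ILC3 subsets, and ILC3s with UMIs of both Ccr6 and Ncr1 were not classed. Il21, a helper T cell cytokine, had 205 UMIs in CD4 T cells and 1 in ILC3s. Irf4 and Hif1a, transcription factors of activated T cells, rose by 3.25 and 2.28. Il22 (-3.62), the chemokine receptor Ccr6 (-2.74) and the transcription factor Rora (-1.20) fell. DESeq2 did not call Il21 (adjusted p = 0.435), Ccr6 (0.184) or Rora (0.187).

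The GM-CSF list had 13 tested genes, with 4 higher, 2 lower and a median of 0.13. The receptor chain gene Csf2ra was lower in CD4 T cells (8.80 and 11.9 against 36.4 and 32.8 CPM; -1.53), and Csf2rb2 had 0 UMIs there. Il18r1 (2.13) and the transcription factor Ets1 (1.63) were higher. Of 15 tested genes of the IL-2 receptor and response list, 5 were higher and 2 lower, with a median of 0.20: the co-stimulatory receptors Cd28 (6.22) and Icos (2.63) were higher, and the survival gene Bcl2 (-2.12) and the receptor chain gene Il2ra (-1.35) lower. DESeq2 did not call Il18r1 (adjusted p = 0.107), Csf2rb2 (0.0538) or Il2ra (0.269). The activation and immediate early list leaned the other way, with 2 of 17 higher, 9 lower and a median of -0.89; Egr3 (-2.17), Jun (-1.74) and Egr1 (-1.57) were lower and Dusp2 (3.14) higher. Of 14 tested effector cytokines 6 were higher, led by Il21 and Ifng (4.56), and 5 were lower, led by Lta (-3.89) and Il22, with a median of -0.05.

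The second comparison set type 2 T cells against CD4 T cells without Il13 and Il5. Il17a, Il17f and Csf2 were higher in the type 2 T cells, which had Gata3, the regulator of type 2 helper cells, in 80.0% and 77.9% of cells and Il17rb in 73.3% and 87.4%. Cd4 was found in 86.7% and 73.7% of them. Among CD4 T cells Gata3 was found in 25.9% and 16.99%. The gate selects on a UMI, and the median depths were 3104 and 2865 UMIs against 2787 and 2098. Of 9052 genes tested by edgeR, 2.83% were called (1.72% higher, 1.1% lower), and 3 of the 5 members were. Il17a was 1824 ± 1272 against 123 ± 19.3 CPM, a log2 fold change of 3.71 with an SE of 0.45 (adjusted p = 4.0e-07). Both type 2 values lay above both CD4 T values, and with UMIs capped at 5 per cell the value was 2.69 (adjusted p = 7.2e-05).

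Il17f was 300 ± 331 against 9.24 ± 2.70 CPM, a log2 fold change of 4.21 with an SE of 0.69 (adjusted p = 7.5e-05). Replicate 1 of this value is a single cell, and the value without replicate 1 was 2.41, and without replicate 2 it was 5.64, both with no test. With at least 2 UMIs of Il13 and Il5 required, it was 2.29 (adjusted p = 0.153, the highest over its settings, the lowest being 2.5e-15). Csf2 was 106 ± 46.1 against 24.4 ± 5.47 CPM, a log2 fold change of 2.22 with an SE of 0.57 (adjusted p = 0.0170). That call was lost with DESeq2 (adjusted p = 0.322), without the replicate block (0.133) and with capped UMIs (0.0702), and its lowest adjusted p was 5.9e-05. Without replicate 2 it was 1.59, with no test. Il2 gave 1.38 (SE 0.67, adjusted p = 0.414), with 0 UMIs in replicate 1 and 7 of 15 UMIs of replicate 2 in the same cell. Il17re had 0 UMIs against 15, where the counts allow a ratio of up to 2.49, so no fold is given.

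In the IL-17 list 3 of 6 tested genes rose, the third being Il17rb (460 and 839 against 61.6 and 33.4 CPM; 3.92), and the median was 1.82 against -0.16 over all genes. The type 17 list gave 2 higher and 2 lower of 20, with a median of -0.25: Irf4 (1.32) and Nfkbiz (1.14) were higher, and Socs3 (-2.78) and Il21 (1 against 205 UMIs) lower. The GM-CSF list gave 1 higher (Rel, 1.15) and 2 lower of 14, with a median of -0.07, and the IL-2 list 1 higher (Socs2, 2.78) and 2 lower of 15, with a median of -0.47. Of 17 activation genes 6 rose and 1 fell, with a median of 0.90. Egr1 (1.61) and Nr4a1 (1.52), which are induced soon after stimulation or handling of cells, were among them; their part in the member values was not tested. Of 12 tested effector cytokines 3 rose and 4 fell, with a median of -0.88: Il4 (4.41) and Areg (3.82) were higher and Ifng (-4.46) and Xcl1 (-2.94) lower. DESeq2 did not call Xcl1 (adjusted p = 0.0582) and gave no adjusted p for Il21.

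The third comparison, between the ILC3 subsets, found Il17a higher in Ccr6-gated than in Ncr1-gated cells, and no other member passed. Of 8137 genes tested by edgeR 1.22% were called (0.725% higher, 0.492% lower), and 1 of the 5 members was. Il17a had 68 UMIs against 1, a log2 fold change of 5.71 with an SE of 1.47 (adjusted p = 0.0490) and a ratio of CPM of 57.0 with a counting interval of 9.89 to 2283. The call was lost with DESeq2 (adjusted p = 0.137) and without the replicate block (0.122), in a range of 5.8e-09 to 0.137. Without replicate 1 the value was 4.48 and without replicate 2 it was 4.13, both with no test. The latter rests on 0 UMIs in Ncr1-gated cells of replicate 1 and is no bound. Il17f had 63 UMIs against 4 (3.79, SE 1.05, adjusted p = 0.0736). Csf2 was 366 ± 189 against 104 ± 29.4 CPM (1.82, SE 0.52, adjusted p = 0.0918; 0.94 without replicate 1 and 2.61 without replicate 2, with no test), and Il17re 93.9 ± 10.03 against 25.7 ± 3.71 CPM (1.89, SE 0.55, adjusted p = 0.0976). For Il17f, Csf2 and Il17re both Ccr6-gated values were above both Ncr1-gated values, and all were called when only these classes were fitted or when no low-count filter was used. Il2 had 6 against 5 UMIs.

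Beside Il17a no gene of the IL-17 list passed (1 of 6, median 1.58 against 0.04 over all genes). Of 19 tested type 17 genes Il1r1, the IL-1 receptor, alone was called, at 505 and 644 against 138 and 241 CPM (1.67), with a list median of 0.32. No gene of the GM-CSF (12 tested), IL-2 (15) or activation (17) lists was called by edgeR, with medians of 0.15, 0.00 and 0.34. At an unadjusted p under 0.05 these lists held 1, 2 and 6 genes, and DESeq2 called 0 in each, as it did for the type 17 list. Of 14 effector cytokines Ifng (1 against 50 UMIs) and Xcl1 (-4.15) were lower.

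The last comparison set γδ T cells, of which only 14 cells came from replicate 1, against ILC3s. Csf2 and Il17re were lower in γδ T cells, and 9.5% of 9041 genes were called (3.29% higher, 6.22% lower), as were 2 of the 5 members. Csf2 was 11.3 ± 16.0 against 180 ± 48.2 CPM (-3.55, SE 0.70, adjusted p = 4.0e-04). Il17re had 1 UMI against 259 (-4.55, SE 1.04, adjusted p = 0.00248). With replicate 2 alone Csf2 was -2.50 and Il17re -3.48. With replicate 1 alone, where γδ T cells had 0 UMIs of Csf2, the Csf2 value was -6.45, which is no bound. Il17a (-0.52, adjusted p = 0.771), Il17f (-1.30, adjusted p = 0.456) and Il2 (1.67, adjusted p = 0.186) did not pass edgeR's test. In the IL-17 list 1 of 6 tested genes, Il17re, was lower, with a median of -1.02 against -0.17 over all genes. The type 17 list had 4 of 17 lower (median -0.18), the GM-CSF list 2 of 13 lower (-0.42), the IL-2 list 3 higher and 2 lower of 15 (0.12), the activation list 1 higher and 9 lower of 17 (-1.04), and the effector list 2 higher and 5 lower of 14 (-0.55). These comparisons share the CD4 T and ILC3 sums, so their values are not independent.

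**Figure D4:**
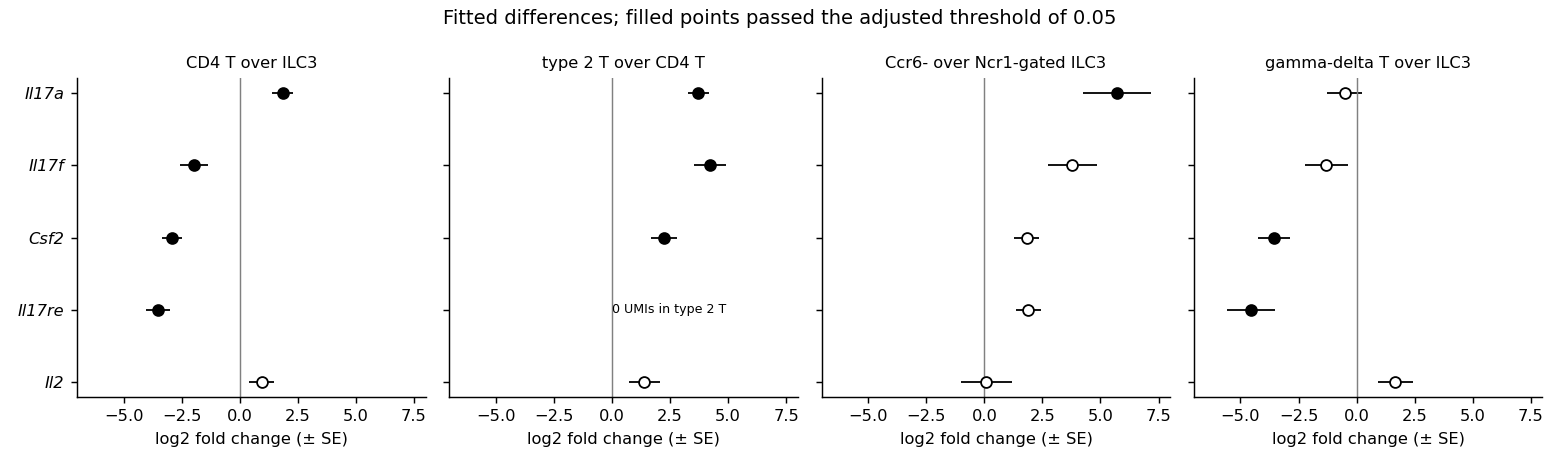
Log2 fold change of each gene with its SE in the 4 comparisons (edgeR), filled where the adjusted p was under 0.05. Il17a points toward CD4 T cells while Il17f, Csf2 and Il17re point toward ILC3s in the leftmost panel.

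Co-detection per cell is described with no test, since cells of a replicate share its capture. In ILC3s Il17a and Il17f were found together: 8 of 23 cells with Il17a in replicate 1 (34.8%) and 10 of 29 in replicate 2 (34.5%) also held Il17f, against 5.5% and 4.1% of cells without Il17a. Il17re accompanied Il17a in 34.8% and 34.5% of positive cells, against 13.3% and 14.9% of the rest. Csf2 showed no such pattern, at 26.1% and 13.8% of cells with Il17a against 22.5% and 18.0% of cells without. Cells with Il17a had median depths of 4139 and 3444 UMIs against class medians of 3649 and 2917, and the part of depth in these shares was not tested. Ccr6 had a UMI in 26.1% and 44.8% of ILC3s with Il17a and in 10.2% and 11.8% of those without. Among all Ccr6-gated ILC3s, Il17re was in 33.3% and 25.8% of cells and Il17f in 20.0% and 12.5%. The part of the subset in the pooled ILC3 shares, here and for Il17f below, was not tested.

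Il17f in ILC3s was likewise joined by Il17re in 8 of 29 cells (27.6%) and 16 of 50 (32.0%), against 13.5% and 14.6% of cells without Il17f. Csf2 was in 27.6% and 26.0% of Il17f-positive cells against 22.3% and 17.4%. Among Csf2-positive ILC3s, Tnf, which encodes an inflammatory cytokine, was found in 44 of 92 (47.8%) and 66 of 179 (36.9%), against 33.8% and 22.2% of cells without Csf2. Csf2 and Il2 shared 7 and 8 cells. At least 2 members were found together in 13.1% and 7.48% of ILC3s and in 35.6% and 21.9% of the Ccr6-gated subset. The share was 1.49% and 1.10% in CD4 T cells, 2.19% and 2.65% in stromal cells, and 2.05% and 0% in plasma cells. The part of depth and of the single-gene shares in these values was not tested.

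In T cells outside the type 2 gate Il17a occurred with Il17f in 1 of 9 cells (11.1%) and 12 of 63 (19.0%), against 2.0% and 1.3% of cells without Il17a. Csf2 was in 1 of 9 and 1 of 63. Il17a-positive cells held Ifng, the type 1 cytokine, in 44.4% and 19.0%, against 40% and 35.9%. In CD4 T cells split by a UMI of Gata3, Il1rl1 or Il17rb, the Il17a shares were 4.5% and 3.7% with and 4.5% and 3.5% without. This split pools these genes and does not show each alone. Il17rb alone is given below.

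In type 2 T cells Il17a was paired with Il17f in 1 of 3 cells and 8 of 27 (29.6%), against 0 of 12 and 1.5% of cells without Il17a. All 3 Il17a cells of replicate 1 and 19 of 27 of replicate 2 (70.4%) held Il13, and 0 of 3 and 20 of 27 (74.1%) held Il5. Both are gate genes, and among cells without Il17a in replicate 2 the shares were 63.2% and 69.1%. Gata3 was in 2 of 3 and 23 of 27 Il17a-positive cells, against 83.3% and 75.0% of type 2 T cells without Il17a. Il17rb was in 3 of 3 and 25 of 27, against 66.7% and 85.3%. Ccr6, Ifng and Il21 had no UMI in these 3 and 27 cells. They were also rare in the 12 and 68 cells without Il17a (Ccr6 in 0 and 0, Ifng in 1 and 4, Il21 in 0 and 1). Il22 was in 1 of 3 and 11 of 27 Il17a-positive cells (337 and 1046 CPM), against 6 of 12 and 18 of 68 (165 and 110 CPM). Il1r1 was in 1 of 3 and 2 of 27. Il17a-positive T cells outside the type 2 gate held Il17rb in 0 of 9 and 13 of 63 cells (20.6%). They held Il1r1 in 1 of 9 and 20 of 63 (31.7%). Among T cells outside that gate without Il17a, Il17rb was in 5.88% and 2.53% and Il1r1 in 4.31% and 4.39%. The higher Il17rb share with Il17a was thus seen in replicate 2 only. The difference between these kinds of T cell was not tested.

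**Figure D5:**
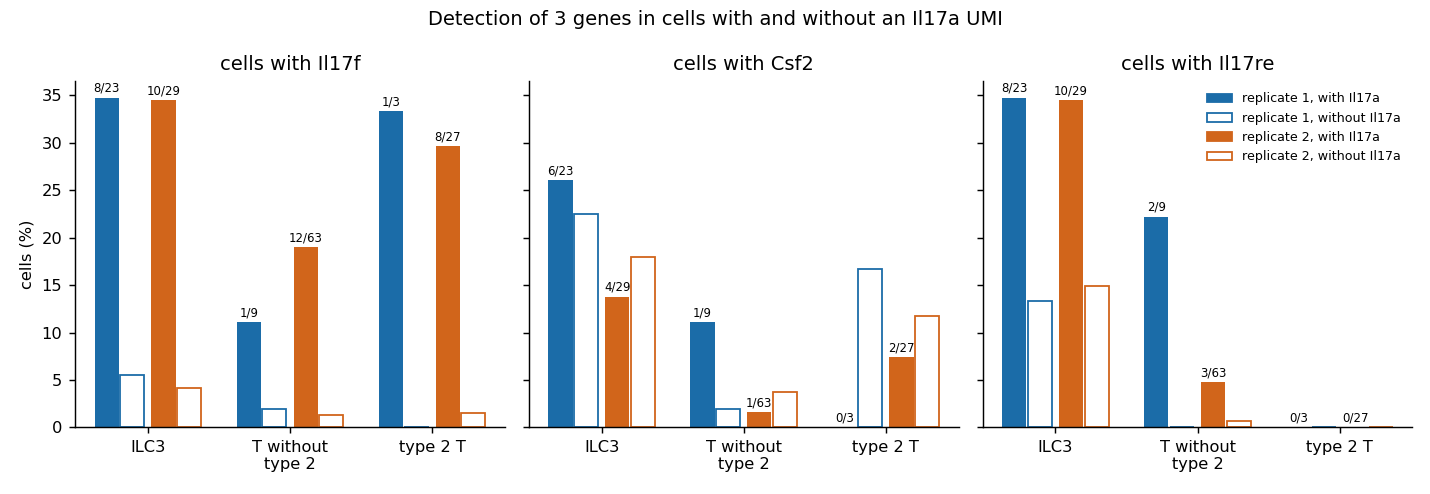
Percent of cells with Il17f, Csf2 or Il17re among cells with (filled) and without (open) an Il17a UMI, in ILC3s, T cells outside the type 2 gate and type 2 T cells, by replicate, with cell numbers above the filled bars. Il17f is near 35% in Il17a-positive ILC3s and under 6% in the others.

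The genes whose level ran most like each member over 11 classes were ranked by the smaller of the Pearson correlations in the replicates, among 8138 genes, as a description only, because classes of a replicate share a capture and depth. For Il17a these were Tnfsf8 (0.85), Il17rb (0.83), 1700061F12Rik (0.80), Ccl1 (0.80) and Ptpn13 (0.80). Csf2 was closest to Sptssa (0.89), Cnnm2 (0.87), Eprs, Wdr83os and Nfil3. Among the genes closest to Il17re were Abhd2 (0.89), Lingo4 (0.88), Cdk5r1 and Espn. For Il17f the closest was Slc9a8 (0.75), then Zfp263, Sf3a2, Nfkbia and Cep85, and for Il2 Mfap1a (0.78), then Bdh1, Secisbp2, Inpp5b and Ctla2a. Il17a and Il17f correlated at 0.81 and 0.54, and Csf2 and Il17re at 0.87 and 0.51.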

How the data were processed

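The deposited counts of UMIs per cell and gene were made, per the file headers, by version 1.8 of the BD WTA Multiplex Rhapsody pipeline on GRCm38 and GENCODE vM19; the sample tag of each cell, a name of other kind than a count, is that pipeline's call per the file headers. HISAT2 2.0.5 and Bowtie2 are named, without a role, in the submitters' processing notes. Cells of tag 4 (replicate 1, of 8064 cells) and tag 2 (replicate 2, of 15793) entered if they had at least 300 genes and no more than 25% mitochondrial UMIs. Scrublet (scanpy 1.11.5) then removed 39 cells (2.01%) and 6 cells (0.143%), so doublets must be taken as present, above all in replicate 2.

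T cells had at least 3 UMIs of Cd3d, Cd3e, Cd3g and Trac. ILC3s had none, at least 4 of 8 markers, with 1 or more of 4 core markers (Il23r, Il1r1, Kit and a gene that is not reported here) beside Il7r, Gpr183, Tmem176a and Tmem176b, and no Il13 or Il5. Ccr6- and Ncr1-gated cells had a UMI of that gene and none of the other. CD4 T cells had Cd4 without Cd8a or Cd8b1, and γδ T cells Trdc without Trac or Cd4. Gates are ranges: 95 and 234 ILC3s stood at the cut, 79 and 181 unclassed cells were 1 marker short, 10 and 154 T cells had exactly 3 UMIs, and 5 and 35 type 2 T cells had 1 type 2 UMI. Gate thresholds were set after the markers' values, but not the members', were seen. The members, gene lists and tests were chosen with earlier results of these data known.

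UMIs were summed per class and replicate and fitted with edgeR 4.0.16 (TMM, filterByExpr, replicate as a block, two-sided, threshold 0.05 after Benjamini-Hochberg adjustment), in 9 classes of at least 12 cells, or 11 with ILC3 subsets separate; residual degrees of freedom were 8 and 10, with 29.94 and 17.14 borrowed across genes. The block was used because classes of a replicate come from the same capture. SE was taken from the F statistic. CD8 T cells had 9 cells in replicate 1 and were not tested. Tested on simulated data for CD4 T against ILC3 (8347 genes, 200 changed, at least 50 CPM), the fit called 64% of the genes changed 2-fold and 100% of those changed 4-fold. Of 175 calls, 11 (6.29%) were false. Apart from the changed genes, the simulated classes did not differ, unlike the real ones. Over all cells Il17f, Il17re and Il2 averaged 19.0, 15.7 and 11.2 CPM, so the rates do not carry over to them. DESeq2 1.42.0 was an alternative. Named list genes are up to 3 per list and direction with the largest absolute change among those called; similar genes are the 5 with the highest smaller correlation of log2(CPM + 5). Gene positions are from GENCODE vM21 and promoters from RefSeq.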

Additional observations from a re-analysis of the deposited data

How the results depend on the processing

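Of 139 member values under the alternatives with an adjusted p, 119 kept their direction and side of the threshold, 10 lost and 8 gained a call, and 2 changed sign; the causes were not tested. With DESeq2, CD4 T against ILC3 gave 1.67 for Il17a and -2.34 for Il17f, type 2 T against CD4 T 2.22 for Csf2 and 63 genes lower (100 before), Ccr6- against Ncr1-gated ILC3 5.63 for Il17a and 36 genes higher (59 before), and γδ T against ILC3 369 genes lower (562 before); it gave no adjusted p for Il17re and Il2 in the second comparison and Il17re in the fourth. Without the replicate block, which the main design holds, Il17f was -1.999 in the first comparison, Csf2 2.28 with 98 genes higher and 51 lower in the second (156 and 100 with it), Il17a 5.63 with 27 higher and 17 lower in the third (59 and 40), and 360 genes were lower in the fourth. With only the compared classes in the fit, the counts were 1527 higher and 2027 lower (776 and 1039), 252 and 191, and 181 and 149 in the first 3 comparisons, and in the third comparison Il17f was 3.74, Csf2 1.64 and Il17re 1.83, all called. There Il17re and Il2 of the second and Il2 of the third had too few counts to be fitted. Without the low-count filter the third gave Il17f 3.75, Csf2 1.79 and Il17re 1.85, all called, with 99 higher and 75 lower. With T cells gated at 1 UMI fewer and 1 T cell UMI allowed in ILC3s, the third gave Il17f 3.82 (called), Il2 -0.42 (reversed) and 62 lower, and Il17a in γδ T reversed to 0.024. With UMIs capped at 5 per cell, added after the data were seen, Il17a was 0.80 in the first, Csf2 1.95 in the second and Il17f 3.45 (called) in the third. The type 2 gate at 2 UMIs gave Il17f 2.29.

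With a replicate left out, leaving values without a test, the ranges were: CD4 T against ILC3, Csf2 -3.23 to -2.12, Il17re -3.25 to -2.88 and Il2 0.44 to 1.06; type 2 T against CD4 T, Csf2 1.59 to 2.27, Il17re -1.75 to -1.13 and Il2 -2.92 to 1.60; Ccr6- against Ncr1-gated ILC3, Il17a 4.13 to 4.48, Il17f 2.99 to 3.85 and Il2 0.10 to 0.15; γδ T against ILC3, Il17a -4.40 to 0.24, Csf2 -6.45 to -2.50 and Il17re -4.38 to -3.48. These ranges are differences of log2 CPM within a single replicate, with a small count added, and not refits. Both Il17re values and the lower Il2 value of type 2 T cells rest on 0 UMIs in those cells. So does the lower γδ T value of each gene. The lower Il17a value of the third comparison, 4.13, rests on 0 UMIs in Ncr1-gated cells. None of these values is a bound. Of 70 shares of positive cells, 25 left their interval when thinned and 46 when 2 UMIs were required, but none with doublets kept. Detection of 1 UMI near the share in plasma and stromal cells limits what low shares can show.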
